A study of Mus musculus with 10 samples.

Results

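The ATF4 amino acid and stress response genes were followed in whole lungs of mice with and without Cre in the lung epithelium. The module holds 36 genes listed by symbol, a list that uses no measured value in its rule but was drawn up with earlier results of these data known: ATF4 and CHOP with related transcription factors, stress effectors, serine and one-carbon enzymes, amino acid transporters, tRNA synthetases and other targets of ATF4. All 36 were found among the 27179 genes of the count table, and all 36 were among the 15301 genes with enough counts to be tested. They were divided by role into 7 subgroups of 3 to 6 genes.

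The study sequenced polyadenylated RNA of the whole lung of 10 mice. All of them carry floxed alleles of IRE1α, the endoplasmic reticulum kinase and ribonuclease encoded by Ern1. The 5 Flox mice (identifiers 2, 3, 4, 5 and 6) are Shh +/+ IRE1α fl/fl, and the 5 EpithelialKO mice (17, 18, 20, 21 and 22) are Shh Cre/+ IRE1α fl/fl, so that Cre is made where Shh is active, which in the lung is the epithelium from early development. The Cre-bearing Shh allele is present only in the EpithelialKO mice, and its effect cannot be told apart from that of the loss of IRE1α; the labels name no age, sex, batch or further treatment. Cells other than epithelium keep Ern1 in this model, and which exons are floxed is not stated in the labels.

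ATF4 is a transcription factor whose mRNA is translated better when the initiation factor eIF2 is phosphorylated, as happens when amino acids run short (through the kinase GCN2) or when unfolded proteins accumulate in the endoplasmic reticulum (through PERK). It switches on genes that import and make amino acids, charge tRNAs and make serine and one-carbon units, and with CHOP it drives feedback and cell death genes. IRE1α heads another arm of the unfolded protein response, which acts through splicing of Xbp1 mRNA. Because ATF4 is controlled largely at translation, its mRNA level is not a measure of its protein.

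Expression is given as CPM, counts scaled to a common library size after TMM correction for library composition, and mice are always listed in the order of identifiers above. A log2 fold change sets EpithelialKO over Flox and is given with its standard error (SE). A gene counted as changed at an adjusted p under 0.05 (edgeR quasi-likelihood test, Benjamini-Hochberg over all genes tested). Total counts per mouse lay between 14983829 and 21224412, with the lowest total in Flox mouse 5. Flox mice 4 and 6 stood apart from the other 8 mice by sex-linked genes: Xist was at 215 and 247 CPM there and at most 4.06 CPM elsewhere, and the summed Y-linked genes had no count there and 152 to 188 CPM elsewhere. All 5 EpithelialKO mice were on the other side of that division, so results are also given without those 2 mice. Ern1 mRNA averaged 16.8 ± 5.28 CPM (SD, n = 5) in Flox and 17.3 ± 6.52 CPM in EpithelialKO lungs (log2 fold change 0.04 ± 0.27 SE, edgeR adjusted p = 0.975). Counts summed over the whole gene and over all lung cells therefore gave no check of the genotype.

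No member of the module passed the test: 0 of 36 had an adjusted p under 0.05 in edgeR, where 6 genes of the whole table (0.0392%) did. The members leaned to higher values in EpithelialKO lungs. At an unadjusted p under 0.05, 11 of the 36 (30.6%) were higher in EpithelialKO lungs, against 5.87% of all genes tested, and 0 were lower, against 6.52%. In 6 members (16.7%) every EpithelialKO mouse lay above every Flox mouse, against 1.63% of all genes, and in 0 members was the order the opposite, against 1.48%. A positive log2 fold change was found in 25 of 36 members (69.4%), against 50.1% of all genes, and the median over the members was 0.13, against 0.00 over all genes. Psat1 of serine synthesis, the asparagine synthetase gene Asns and the leucine transporter gene Slc7a5 had log2 fold changes of 0.67, 0.69 and 0.63, followed among the 11 by Ddit3, Vldlr, Cars, Gars, Nupr1, Sars, Aars and Nars at 0.40 to 0.18. In RNA of a whole organ, a change in the number of cells of a type and a change in RNA per cell cannot be told apart.

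**Figure D1:**
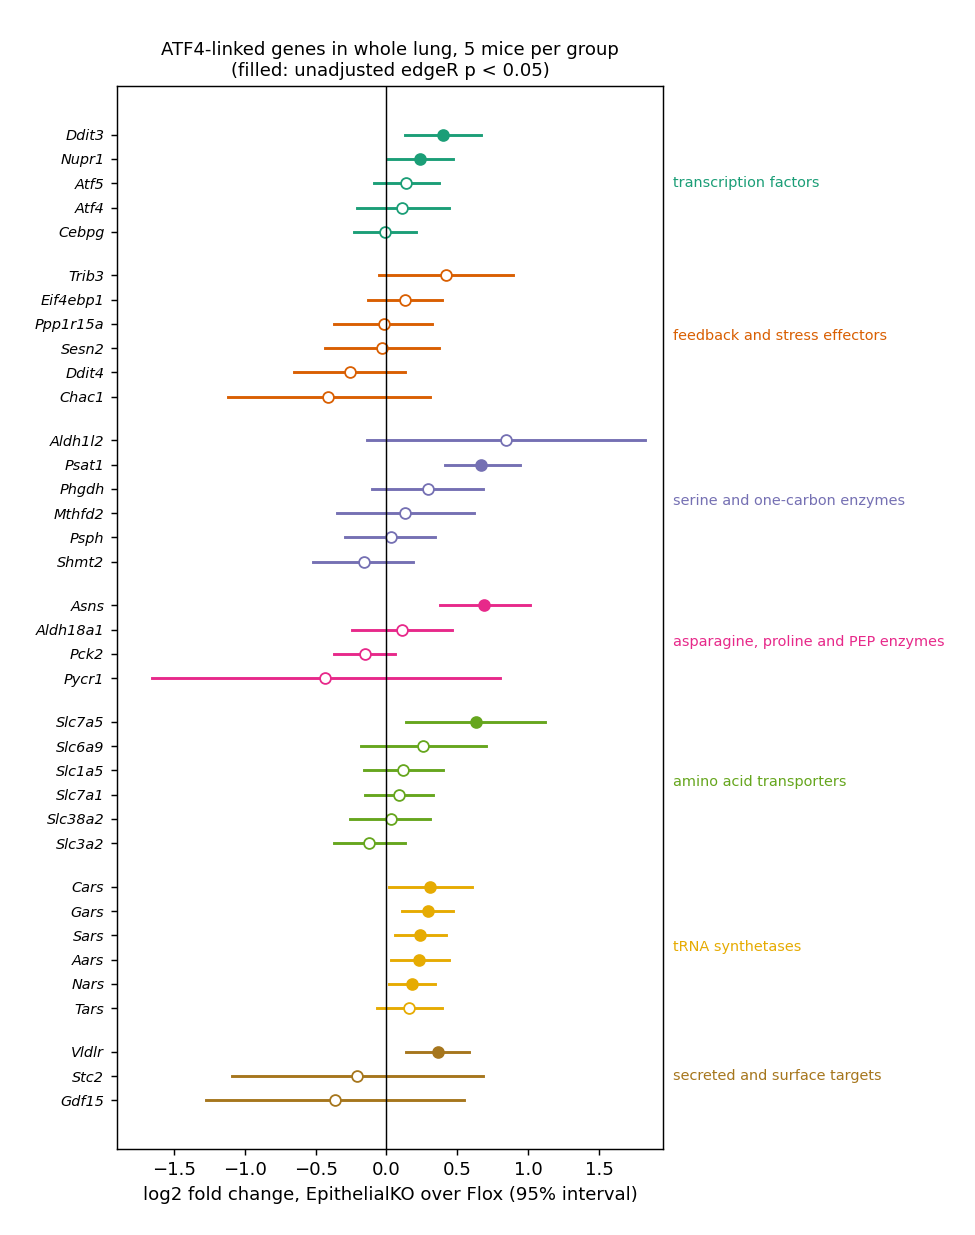
Log2 fold change (x axis, EpithelialKO over Flox, 5 mice each) of the 36 genes (y axis), with 95% intervals from the edgeR fit, coloured by role; filled points had an unadjusted p under 0.05. All 11 filled points lie to the right of 0, and 5 of them are tRNA synthetase genes.

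The calls for the leading pair of genes depended on the test. Psat1 and Asns had adjusted p-values of 0.000434 and 0.00381 in DESeq2's Wald test, where 2.21% of 12627 genes were called. With limma-voom and sample weights the adjusted p-values were 0.0411 and 0.0236, where 0.19% of 15301 genes were called. Without the filter on low counts both stood at an adjusted p of 0.0396 in edgeR, where 0.162% of 20950 genes were called. Without Flox mouse 5 they stood at 0.0469 and 0.0196 in edgeR, where 0.31% of 15496 genes were called. In each of those 4 analyses Psat1 and Asns were the 2 members called. Leaving out any other single mouse gave 0 calls in the whole table. The edgeR adjusted p-values were then 0.0966 to 0.158 for Psat1 and 0.118 to 0.282 for Asns. Without Flox mice 4 and 6 neither was called, with edgeR adjusted p-values of 0.34 for Psat1 and 0.501 for Asns, where 0 genes of the whole table were called. Their log2 fold changes there were 0.65 and 0.52. In that fit 7 members were higher at an unadjusted p under 0.05, against 3.56% of all genes, and 1 was lower (Slc3a2), against 4.12%; of the 11 members above, 6 were again among the 7.

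The bases upstream of several of these genes hold a sequence to which ATF4 with a C/EBP partner is known to bind. The motif searched was TGATGNAAN on both strands, with no other motif searched beside it, from 250 bases before to 50 after each start site in a table of RefSeq promoters (GRCm38.p6). It was present in 10 of 30 members with an entry (33.3%), in 8 of 61 other genes of the pathway lists described further on (13.1%) in 1215 of all 27025 genes with an entry (4.5%) and in 3.95% of all 32851 promoters, a gene counting when any of its promoters held it. By role it was present in 3 of 4 tRNA synthetase genes, 3 of 4 genes for asparagine, proline and phosphoenolpyruvate (PEP) enzymes, 2 of 5 effector genes, 1 of 5 transcription factor genes and 1 of 3 secreted and surface targets. It was present in 0 of 5 serine and one-carbon genes, Psat1 among them, and 0 of 4 transporter genes. Eif4ebp1, Aldh1l2, Slc7a5, Slc1a5, Cars and Nars had no entry in the promoter table. Among members with an entry, 5 of the 8 at an unadjusted p under 0.05 held it (62.5%) and 5 of the other 22 (22.7%). The difference between these 2 shares was not tested. Members were listed as ATF4, its relatives and its targets, so a share above that of all genes can come from how the list was drawn up. A match describes letters only, and no binding was measured. The 250 bases before the start site are printed 5′ to 3′ on the strand of the gene, with the motif in capitals, for Asns, Gars, Aars, Vldlr and Nupr1, which had higher mean levels in EpithelialKO lungs, and for Chac1, which holds the motif and had a lower mean there. They are chr6:7693210-7693459 on the minus strand for Asns, chr6:55037751-55038000 on the plus strand for Gars, chr8:111033592-111033841 on the plus strand for Aars, chr19:27216770-27217019 on the plus strand for Vldlr, chr7:126625471-126625720 on the minus strand for Nupr1 and chr2:119350992-119351241 on the plus strand for Chac1. The windows of Aars and Vldlr lie inside the spans RefSeq gives for those genes, which begin further upstream at 111027778 and 27216480, so they precede a start within the gene; of the 2 promoters listed for Vldlr, only the one printed held the motif.
Asns: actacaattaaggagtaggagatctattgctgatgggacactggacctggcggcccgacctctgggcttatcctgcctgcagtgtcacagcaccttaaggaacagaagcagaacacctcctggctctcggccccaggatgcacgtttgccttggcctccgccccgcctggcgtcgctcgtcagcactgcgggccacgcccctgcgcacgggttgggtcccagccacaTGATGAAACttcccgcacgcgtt
Gars: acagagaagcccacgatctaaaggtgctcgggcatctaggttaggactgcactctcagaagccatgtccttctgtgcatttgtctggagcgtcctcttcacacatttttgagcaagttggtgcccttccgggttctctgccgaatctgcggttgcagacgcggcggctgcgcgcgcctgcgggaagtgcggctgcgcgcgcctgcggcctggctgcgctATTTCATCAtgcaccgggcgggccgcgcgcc
Aars: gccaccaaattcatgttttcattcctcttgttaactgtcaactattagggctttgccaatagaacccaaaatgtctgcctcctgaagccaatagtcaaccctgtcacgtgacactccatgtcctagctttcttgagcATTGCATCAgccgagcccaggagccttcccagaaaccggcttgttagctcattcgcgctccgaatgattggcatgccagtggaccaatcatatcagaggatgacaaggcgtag
Vldlr: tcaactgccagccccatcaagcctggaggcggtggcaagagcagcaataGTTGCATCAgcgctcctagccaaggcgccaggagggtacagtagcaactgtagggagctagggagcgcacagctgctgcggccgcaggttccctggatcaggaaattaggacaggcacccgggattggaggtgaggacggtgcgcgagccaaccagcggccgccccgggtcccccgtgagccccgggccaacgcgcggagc
Nupr1: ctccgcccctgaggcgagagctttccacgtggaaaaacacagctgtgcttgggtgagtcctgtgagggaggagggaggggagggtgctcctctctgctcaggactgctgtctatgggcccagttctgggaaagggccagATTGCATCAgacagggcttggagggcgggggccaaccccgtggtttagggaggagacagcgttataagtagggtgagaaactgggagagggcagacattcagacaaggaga
Chac1: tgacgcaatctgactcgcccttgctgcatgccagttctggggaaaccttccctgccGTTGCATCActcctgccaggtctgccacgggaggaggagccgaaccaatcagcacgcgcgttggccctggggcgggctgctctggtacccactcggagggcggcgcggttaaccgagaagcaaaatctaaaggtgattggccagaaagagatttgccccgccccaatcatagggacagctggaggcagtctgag
The capitals begin 23 bases before that start site in Asns, 31 in Gars, 113 in Aars, 201 in Vldlr, 111 in Nupr1 and 194 in Chac1. Only in Asns among these 6 were the letters found on the strand of the gene (TGATGAAAC); in the other 5 they were found on the opposite strand, so the capitals show their reverse complement. Aars held another match 8 bases after that start site.

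Among the transcription factors, the log2 fold change of Ddit3 was larger than that of Atf4, a difference that was not tested. Ddit3, which encodes CHOP (chromosome 10, 127290793 to 127296291, GRCm38), was at 32.5, 34.2, 28.7, 39.3 and 27.6 CPM in the Flox mice and 40.1, 52.4, 39.6, 45.4 and 36.8 CPM in the EpithelialKO mice. All 5 EpithelialKO mice lay above the Flox mean, and the groups overlapped only through Flox mouse 5 and EpithelialKO mouse 22. The means were 32.5 ± 4.69 and 42.8 ± 6.16 CPM (SD, n = 5), a log2 fold change of 0.40 ± 0.13 (edgeR adjusted p = 0.205), or 0.28 ± 0.14 without Flox mice 4 and 6 (adjusted p = 0.692). Atf4 itself (chromosome 15, 80255184 to 80257545) was at 105, 143, 106, 194 and 109 CPM in the Flox mice and 166, 139, 136, 131 and 138 CPM in the EpithelialKO mice. The highest value of the 10 belonged to Flox mouse 5, and the other Flox mice were at 143 CPM or less. Its log2 fold change was 0.11 ± 0.15 (edgeR adjusted p = 0.812), turned to -0.05 without Flox mice 4 and 6 and became 0.30 without Flox mouse 5. Nupr1, a small stress-induced chromatin protein gene, was at 74.5, 83.0, 85.4, 100 and 79.8 CPM in the Flox mice and 85.7, 87.6, 121, 106 and 98.6 CPM in the EpithelialKO mice. Every EpithelialKO mouse exceeded 4 of the 5 Flox mice, and the log2 fold change was 0.24 ± 0.11 (edgeR adjusted p = 0.388). Atf5, a relative of ATF4 under the same translational control, had a log2 fold change of 0.14 ± 0.11, and Cebpg, which encodes a C/EBP partner of ATF4, had one of -0.01 ± 0.11.

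The feedback and stress effectors had no lean to higher values. A positive log2 fold change was found in 2 of 6 (33.3%, against 50.1% of all genes), and their median was -0.03. At an unadjusted p under 0.05, 0 were higher and 0 were lower, against 5.87% and 6.52% of all genes. With 6 genes, 0 calls lie near those shares. Trib3, a pseudokinase that restrains ATF4 and CHOP, was at 8.70, 8.62, 11.8, 5.39 and 5.59 CPM in the Flox mice and 9.47, 11.3, 13.6, 10 and 9.58 CPM in the EpithelialKO mice. Flox mouse 4 lay inside the EpithelialKO range and the other 4 Flox mice lay below it (log2 fold change 0.42 ± 0.22, edgeR adjusted p = 0.455). Chac1, which encodes a glutathione-degrading enzyme, was at 6.05, 8.68, 3.69, 7.46 and 3.76 CPM in the Flox mice and 1.97, 5.49, 2.93, 6.92 and 4.96 CPM in the EpithelialKO mice. The groups overlapped over most of their range, and the log2 fold change was -0.41 ± 0.34 (edgeR adjusted p = 0.668). Ppp1r15a, whose product GADD34 brings phosphatase to eIF2, and Sesn2, a leucine sensor that restrains mTORC1, had log2 fold changes of -0.02 ± 0.16 and -0.03 ± 0.19. Ddit4, an inhibitor of mTORC1, had one of -0.26 ± 0.18, with 1 of 5 EpithelialKO mice above the Flox mean, and Eif4ebp1, which encodes a repressor of cap-dependent translation, had one of 0.13 ± 0.12.

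Of the 6 serine and one-carbon enzymes, 1 (16.7%) had every EpithelialKO mouse above every Flox mouse, against 1.63% of all genes. That gene was Psat1, 1 of the 3 successive enzymes of serine synthesis. Psat1, the aminotransferase of the middle step (chromosome 19, 15905123 to 15925059), was at 16.1, 16.8, 12.9, 14.4 and 17.3 CPM in the Flox mice and 23.7, 24.8, 23.6, 24.5 and 26.8 CPM in the EpithelialKO mice. The groups did not overlap, and the lowest EpithelialKO mouse was at 23.6 CPM against 17.3 CPM in the highest Flox mouse. The means were 15.5 ± 1.83 and 24.7 ± 1.28 CPM (SD, n = 5), a log2 fold change of 0.67 ± 0.13 with a 95% interval of 0.41 to 0.94 (edgeR adjusted p = 0.0577), which placed Psat1 at rank 15 of 15301 genes by p. Phgdh, the dehydrogenase of the step before, was at 23.6, 28.5, 24.7, 12.5 and 26.4 CPM in the Flox mice and 24.7, 30.9, 23.5, 29.1 and 33.7 CPM in the EpithelialKO mice. Flox mouse 5 was far below all others, and the log2 fold change of 0.29 ± 0.18 (edgeR adjusted p = 0.546) became 0.14 without it. Psph, the phosphatase of the last step, averaged 14.4 CPM in Flox and 14.7 CPM in EpithelialKO lungs (log2 fold change 0.03 ± 0.15). No test compared the 3 enzymes with each other. Of the mitochondrial one-carbon enzymes, Shmt2, which cleaves serine, had a log2 fold change of -0.16 ± 0.17 and Mthfd2, which oxidises the carbon unit, one of 0.13 ± 0.23. Aldh1l2, which releases it as carbon dioxide, had the highest log2 fold change of the module and an SE to match (0.84 ± 0.46), from 5 to 51 counts per mouse.

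Asns, which makes asparagine from aspartate and glutamine (chromosome 6, 7675165 to 7693209), was at 21.3, 22.8, 17.9, 30.4 and 17.5 CPM in the Flox mice and 32.2, 36.4, 34.0, 40.6 and 34.4 CPM in the EpithelialKO mice. The groups did not overlap, although Flox mouse 5 at 30.4 CPM came close to EpithelialKO mouse 17 at 32.2 CPM; Flox mice 4 and 6 were the lowest. The means were 22.0 ± 5.22 and 35.5 ± 3.22 CPM (SD, n = 5), a log2 fold change of 0.69 ± 0.15 with a 95% interval of 0.38 to 1.01 (edgeR adjusted p = 0.0859). That value was 0.52 ± 0.15 without Flox mice 4 and 6 and 0.84 without Flox mouse 5, whereas Psat1 stood at 0.65 in both. The other enzymes of the subgroup had smaller or negative differences. Aldh18a1 and Pycr1, the first and last enzymes of proline synthesis from glutamate, had log2 fold changes of 0.11 ± 0.16 and -0.43 ± 0.58, the latter from 4 to 37 counts per mouse. Pck2, the mitochondrial enzyme that makes phosphoenolpyruvate, had one of -0.15 ± 0.10, and none of the 5 EpithelialKO mice, at 33.7 to 38.2 CPM, exceeded the Flox mean of 39.8 CPM. Asns, Pycr1 and Pck2 hold the motif within 250 bases before a start site, and of these Pycr1 and Pck2 had lower means in EpithelialKO lungs.

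**Figure D2:**
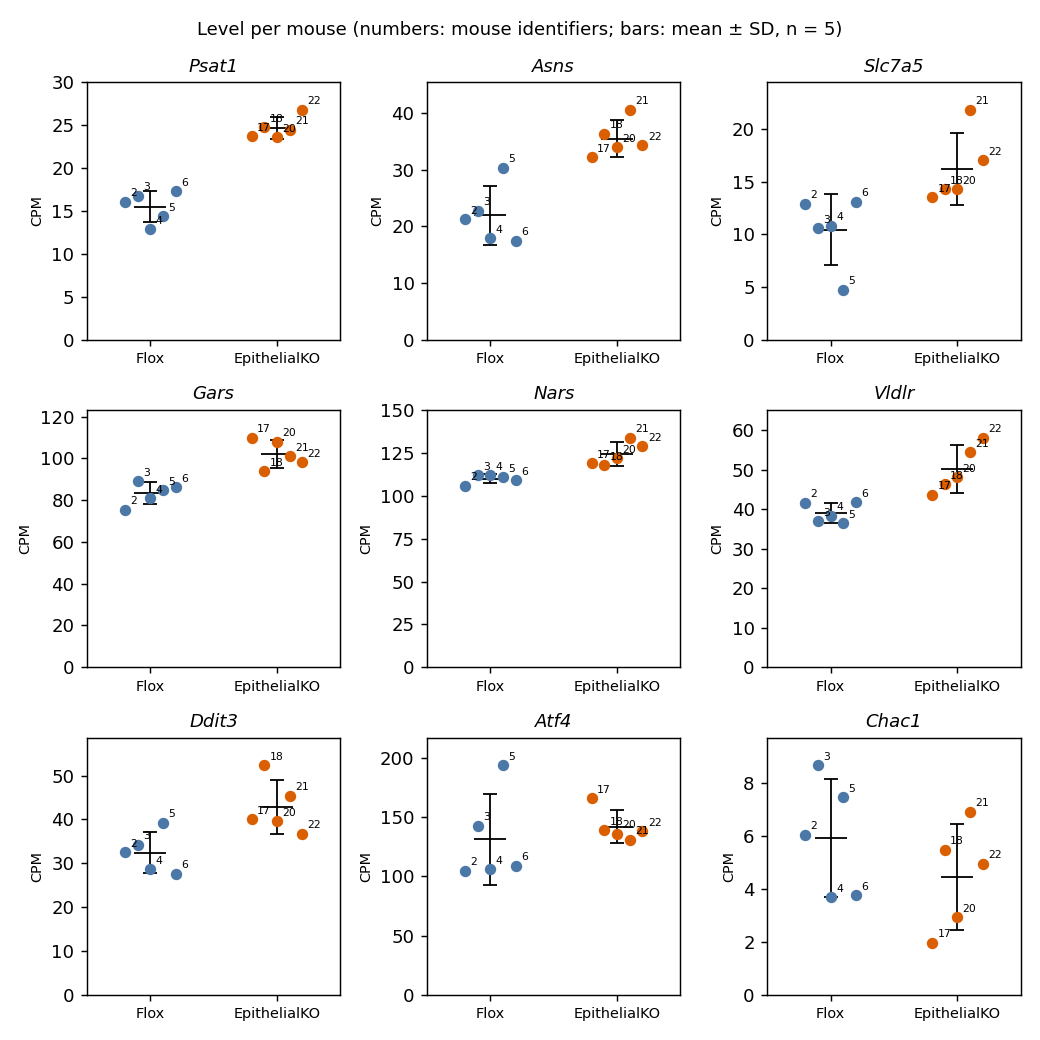
CPM (y axis, from 0) of 9 genes in each Flox and EpithelialKO mouse (x axis), with mouse identifiers beside the points and the mean ± SD of 5 mice. In Psat1, Asns, Slc7a5, Gars, Nars and Vldlr all EpithelialKO mice lie above all Flox mice; in Ddit3, Atf4 and Chac1 the groups overlap.

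Of the 6 amino acid transporters, 1 was higher at an unadjusted p under 0.05 (16.7%, against 5.87% of all genes), a share that rests on 1 call. That gene was Slc7a5. It encodes LAT1, the transporter of leucine and other large neutral amino acids (chromosome 8, 121881146 to 121907686), and was at 12.9, 10.6, 10.8, 4.73 and 13.1 CPM in the Flox mice and 13.5, 14.3, 14.3, 21.8 and 17.0 CPM in the EpithelialKO mice. The groups did not overlap, but they met closely, with Flox mouse 6 at 13.1 and EpithelialKO mouse 17 at 13.5 CPM. The log2 fold change was 0.63 ± 0.23 (edgeR adjusted p = 0.274), 0.45 without Flox mouse 5 and 0.77 without Flox mice 4 and 6. Slc3a2, the heavy chain with which LAT1 pairs at the membrane, was at 208, 187, 149, 211 and 157 CPM in the Flox mice and 163, 207, 155, 164 and 152 CPM in the EpithelialKO mice. Only EpithelialKO mouse 18 lay above the Flox mean, and the log2 fold change was -0.12 ± 0.12 (edgeR adjusted p = 0.725), or -0.27 without Flox mice 4 and 6 (adjusted p = 0.633). Slc6a9, a glycine transporter, was at 44.1, 24.3, 24.5, 19.2 and 20.9 CPM in the Flox mice and 35.0, 33.6, 34.2, 34.7 and 21.9 CPM in the EpithelialKO mice. In it 4 EpithelialKO mice lay close together above 4 of the 5 Flox mice, with Flox mouse 2 and EpithelialKO mouse 22 out of line with their groups (log2 fold change 0.26 ± 0.21). Slc7a1, a transporter of arginine and lysine, was at 19.4, 18.9, 20.5, 20.8 and 22.0 CPM in the Flox mice and 20.9, 21.1, 21.5, 21.4 and 23.3 CPM in the EpithelialKO mice. The groups overlapped through Flox mouse 6 alone (log2 fold change 0.09 ± 0.11). The glutamine and neutral amino acid transporters Slc38a2 and Slc1a5 had log2 fold changes of 0.03 ± 0.14 and 0.12 ± 0.13.

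The tRNA synthetases, which join amino acids to their tRNAs, formed the subgroup with the narrowest range: all 6 had positive log2 fold changes, between 0.16 and 0.31, with a median of 0.24. At an unadjusted p under 0.05, 5 of 6 were higher (83.3%, against 5.87% of all genes), but without Flox mice 4 and 6 only 2 were, Gars and Aars (against 3.56%). Gars, for glycine (chromosome 6, 55038001 to 55079504), was at 75.5, 89.0, 80.9, 84.8 and 86.3 CPM in the Flox mice and 110, 94.0, 108, 101 and 98.1 CPM in the EpithelialKO mice. Nars, for asparagine, was at 106, 112, 112, 111 and 109 CPM in the Flox mice and 119, 118, 122, 134 and 129 CPM in the EpithelialKO mice. In both genes the groups did not overlap, with log2 fold changes of 0.29 ± 0.08 for Gars and 0.18 ± 0.08 for Nars (edgeR adjusted p = 0.166 and adjusted p = 0.355). Sars, for serine, was at 140, 147, 133, 145 and 131 CPM in the Flox mice and 173, 155, 177, 146 and 173 CPM in the EpithelialKO mice, and the groups overlapped only between Flox mouse 3 and EpithelialKO mouse 21 (0.24 ± 0.09, adjusted p = 0.249). Aars, for alanine, was at 64.3, 73.5, 67.4, 63.0 and 77.4 CPM in the Flox mice and 71.9, 89.2, 74.2, 90.0 and 80.7 CPM in the EpithelialKO mice. Cars, for cysteine, was at 22.9, 30.1, 25.5, 30.2 and 26.3 CPM in the Flox mice and 28.9, 36.4, 35.1, 40.7 and 25.7 CPM in the EpithelialKO mice. The groups overlapped in both genes, with EpithelialKO mouse 17 the lowest of its group in Aars and mouse 22 in Cars. Aars and Cars had log2 fold changes of 0.23 ± 0.10 and 0.31 ± 0.14 (edgeR adjusted p = 0.34 and adjusted p = 0.372). Tars, for threonine, had a log2 fold change of 0.16 ± 0.11. Without Flox mice 4 and 6 the values were 0.30 for Gars, 0.28 for Aars, 0.27 for Cars, 0.19 for Nars and for Sars, and 0.06 for Tars.

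The 14 other cytosolic synthetase genes gave a smaller median of 0.09, with 13 positive values (92.9%, against 50.1% of all genes). At an unadjusted p under 0.05, 1 of them was higher (7.14%, against 5.87% of all genes). That gene was Mars1, for methionine, with means of 32.8 ± 2.26 and 42.2 ± 2.82 CPM (SD, n = 5), no overlap between the groups and a log2 fold change of 0.36 ± 0.10 (edgeR adjusted p = 0.154). The span of Mars1 (chromosome 10, 127296221 to 127311786) overlaps that of Ddit3, which ends at 127296291. Whether the 2 genes share reads was not tested. The 17 mitochondrial synthetase genes had a median of 0.04, with 10 positive values (58.8%, against 50.1%). At an unadjusted p under 0.05, 0 of these were higher (against 5.87%) and 1 was lower (5.88%, against 6.52%). The lower one was Lars2, for leucine, with means of 739 ± 213 and 513 ± 173 CPM and overlapping groups (log2 fold change -0.53 ± 0.23, edgeR adjusted p = 0.387). Per length it stood at 190 RPKM in Flox lungs against 0.397 to 9.9 RPKM for the other 16, and since the counting is not described, whether all of its counts come from Lars2 mRNA is uncertain. The difference between the 3 groups of synthetases was not tested.

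**Figure D3:**
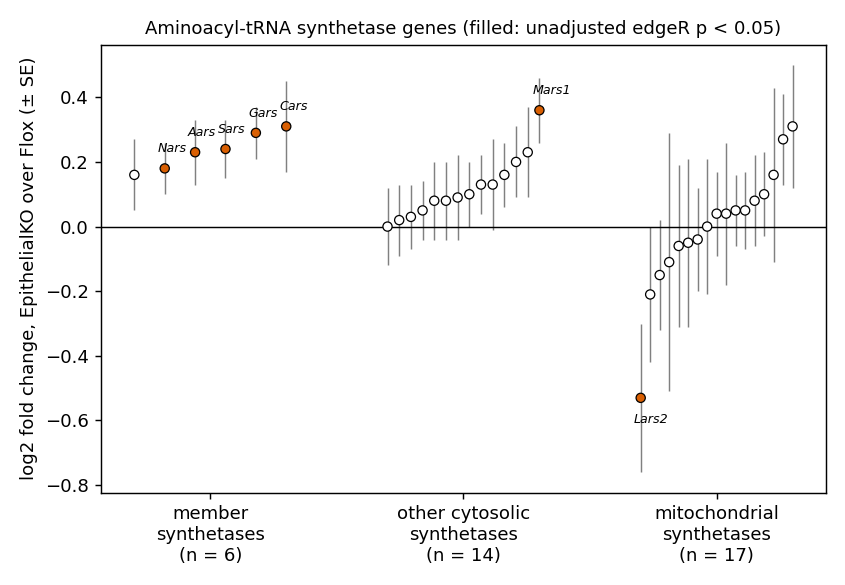
Log2 fold change ± SE (y axis, EpithelialKO over Flox, 5 mice each) of tRNA synthetase genes in 3 groups (x axis), each point 1 gene; filled points had an unadjusted p under 0.05. The 6 synthetases of the module lie between 0.16 and 0.31, the 14 other cytosolic ones reach up to 0.36 and the mitochondrial ones lie on both sides of 0.

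Among the secreted and surface targets, Vldlr, the receptor for very low density lipoprotein, was at 41.6, 37.0, 38.3, 36.4 and 41.7 CPM in the Flox mice and 43.6, 46.3, 48.1, 54.4 and 58.1 CPM in the EpithelialKO mice. The groups did not overlap, and the log2 fold change was 0.36 ± 0.10 (edgeR adjusted p = 0.167), or 0.39 without Flox mice 4 and 6. The hormones pointed the other way with wide errors. Gdf15, a stress hormone that reduces appetite, had a log2 fold change of -0.36 ± 0.43 from 18 to 64 counts per mouse, and Stc2, a secreted glycoprotein, one of -0.21 ± 0.42 from 13 to 51 counts.

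The levels of the members differed widely. On a scale per length of the merged exons of a gene (RPKM), the highest mean levels in Flox lungs were those of Nupr1 at 102, Atf4 at 76.2, Slc3a2 at 60.4 and Atf5 at 46.1 RPKM, and the lowest those of Aldh1l2 at 0.177, Pycr1 at 0.364, Stc2 at 0.51 and Gdf15 at 1.25 RPKM. On that scale Slc3a2 stood far above its partner Slc7a5 at 2.97 RPKM, and Ddit3 at 36.5 RPKM stood above Asns at 10.2 and Psat1 at 5.28 RPKM. The spread between mice of a group followed the counts in part: the coefficient of variation among Flox mice was 2.41% for Nars, 5.29% for Sars and 6.07% for Slc7a1, and 54.6% for Pycr1, 53.9% for Gdf15 and 47.5% for Aldh1l2. Atf4, with ample counts, nevertheless varied by 29.1% among Flox mice and by 9.5% among EpithelialKO mice.

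**Figure D4:**
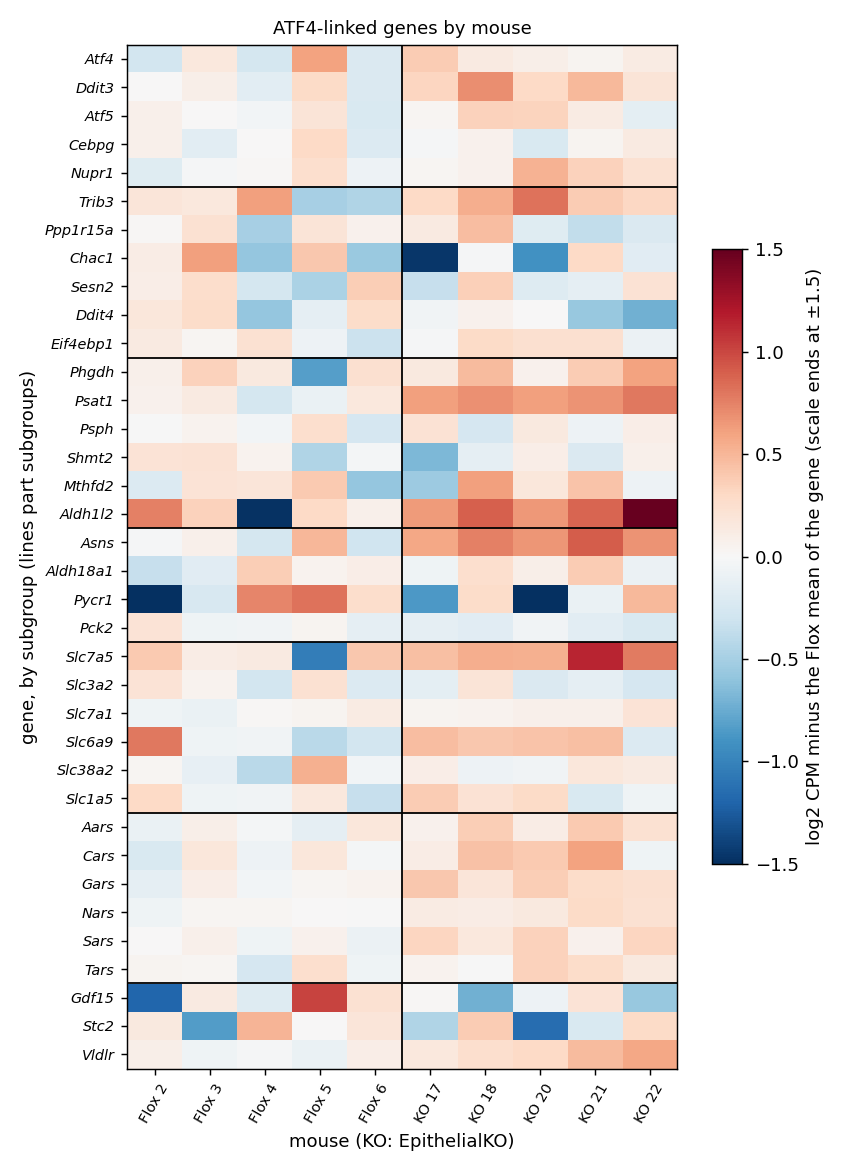
Level of each of the 36 genes (y axis, grouped by role) in each mouse (x axis) as log2 CPM minus the mean of the 5 Flox mice, red above and blue below that mean, with the colour scale ending at 1.5 on either side. Psat1 and Asns are red in all 5 EpithelialKO mice and each of the 6 synthetases in at least 4, while Flox mouse 5 alternates between strong red and strong blue.

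Flox mouse 5 was the most extreme animal for the module, being the highest of the 10 mice in 7 members and the lowest in 7. It was highest in Atf4 and Slc38a2 and lowest in Phgdh and Slc7a5, and its library also had the lowest total. Flox mouse 6 was lowest in 8 members and highest in 1. EpithelialKO mice 18 and 21 were lowest in 0 members and highest in 5 and 6. Over all 36 genes, the median difference from the Flox mean (log2 CPM) was 0.08, 0.25, 0.15, 0.26 and 0.14 in the EpithelialKO mice and 0.05, 0.08, -0.05, 0.11 and -0.04 in the Flox mice, so the groups overlapped through EpithelialKO mouse 17. For the synthetases the same medians were 0.11, 0.17, 0.35, 0.29 and 0.23 in the EpithelialKO mice and -0.08, 0.09, -0.05, 0.05 and -0.02 in the Flox mice.

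Whether members vary together among mice of the same genotype was examined against Asns, after subtraction of each group's mean. None of 35 members was related to Asns after adjustment (exact permutation within groups, two-sided, all pairings, Benjamini-Hochberg over 35 relations, lowest adjusted p = 0.126), and 4 were at an unadjusted p under 0.05. Ddit3 had a Pearson r of 0.80 and a Spearman rho of 0.75 over the 10 mice (exact permutation, adjusted p = 0.126 and 0.392), with r at 0.65 without Flox mice 6 and 4, the mice farthest from the Asns median. Chac1, whose group means lay in the opposite order to those of Asns, had an r of 0.71 and a rho of 0.90 within groups (exact permutation, adjusted p = 0.126 and 0.151), with r at 0.52 without the same mice. Mthfd2 and Tars, also at an unadjusted p under 0.05, had r of 0.63 and 0.70 (exact permutation, adjusted p = 0.327 for each). Atf4 had an r of 0.72 (exact permutation, adjusted p = 0.333) but a rho of 0.0 within groups. Over the 35 members the median r was 0.18, and 21 were positive. These correlations share the scaling of each library.

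Genes around the module were read from 5 further lists with 75 tested genes, of which 53 (70.7%, against 50.1% of all genes) had positive log2 fold changes and 0 passed after adjustment. At an unadjusted p under 0.05 there were 9 higher genes (12%, against 5.87%) and 1 lower one (1.33%, against 6.52%). Of 17 genes for the eIF2 kinases, eIF2 and its regulators, which act upstream of ATF4, 2 were higher at an unadjusted p under 0.05 (11.8%, against 5.87% of all genes), and in both the groups did not overlap (against 1.63%). With 17 genes these shares rest on few calls. The 2 higher genes were Eif2s2, the beta subunit of eIF2, at means of 100 ± 6.54 and 125 ± 10.7 CPM (log2 fold change 0.31 ± 0.09, edgeR adjusted p = 0.158), and Eif2b5, a subunit of its exchange factor, at 63.7 ± 3.79 and 77.0 ± 3.98 CPM (0.27 ± 0.09, adjusted p = 0.202). Of the 17 genes, 10 had positive and 7 negative log2 fold changes. Among the kinase genes, Eif2ak3 (PERK) and Eif2ak2 had log2 fold changes of -0.22 ± 0.13 and -0.23 ± 0.14 (edgeR adjusted p = 0.501 and adjusted p = 0.511). Those of Eif2ak4 (GCN2) and Eif2ak1 were 0.10 ± 0.13 and -0.06 ± 0.11. Of 15 other ATF4-linked genes, 10 had positive log2 fold changes, and 3 were higher at an unadjusted p under 0.05 (20%, against 5.87% of all genes). The cystine transporter gene Slc7a11 was at 1.67, 2.53, 0.761, 2.2 and 2.39 CPM in the Flox mice and 4.29, 5.44, 2.75, 7.19 and 3.89 CPM in the EpithelialKO mice, without overlap (log2 fold change 1.30 ± 0.36, edgeR adjusted p = 0.154). Cth, which makes cysteine from cystathionine, was at 8.98, 9.7, 8.09, 12.8 and 7.37 CPM in the Flox mice and 12.5, 14.2, 17.8, 19.3 and 18.3 CPM in the EpithelialKO mice, where Flox mouse 5 slightly exceeded EpithelialKO mouse 17 (0.81 ± 0.18, edgeR adjusted p = 0.106). Gpt2, the mitochondrial alanine aminotransferase, had a log2 fold change of 0.55 ± 0.15 and no overlap between the groups (edgeR adjusted p = 0.153). Of 12 other serine, glycine and folate enzymes, 10 had positive log2 fold changes, and 3 were higher at an unadjusted p under 0.05 (25%, against 5.87% of all genes). Those 3 were Shmt1, Amt and Gcsh, at 0.47 ± 0.20, 0.43 ± 0.20 and 0.29 ± 0.12 (edgeR adjusted p-values of 0.335 to 0.392).

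Markers of several cell types differed in level between the same groups, although none of them passed the test (lowest edgeR adjusted p = 0.0598). The summed level of 6 markers of alveolar type 2 cells, all 6 with higher means in EpithelialKO lungs, was 39700 to 47600 CPM in Flox and 47800 to 59200 CPM in EpithelialKO mice, with no overlap. The 5 club cell markers summed to 21400 to 46400 and 33300 to 52700 CPM, and the 5 ciliated cell markers to 604 to 868 and 759 to 1060 CPM, with higher means for 5 of 5 in both lists. The 5 markers of alveolar type 1 cells summed to 2820 to 3880 CPM in Flox and 2700 to 4070 CPM in EpithelialKO mice, with 3 higher and 2 lower means and a median log2 fold change of 0.01. The 5 endothelial markers summed to 2190 to 2860 CPM in Flox and 1640 to 2140 CPM in EpithelialKO mice, with lower means for 5 of 5 and no overlap. The 5 fibroblast and matrix markers (2200 to 3270 and 2000 to 2500 CPM) and 5 lymphocyte markers (114 to 243 and 70.8 to 145 CPM) also had lower means in EpithelialKO lungs for 5 of 5. Macrophage markers summed to 571 to 1190 and 796 to 1840 CPM, with higher means for 4 of 5. Adipocyte markers (44.9 to 233 and 49.8 to 222 CPM) had higher means for 4 of 4 and erythroid markers (1080 to 4310 and 1820 to 4550 CPM) for 3 of 3, with overlapping sums. Plasma cell markers had higher means for 2 of 3 (379 to 1150 and 608 to 1100 CPM) and cardiomyocyte markers for 1 of 4 (67.9 to 180 and 48.6 to 176 CPM). In neutrophils 4 of 4 markers had lower means (239 to 346 and 140 to 393 CPM summed). No marker on these lists was at 0 counts in all mice. The part of these differences in the values of the ATF4-linked genes was not tested.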

How the data were processed

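The deposited table holds raw counts, whole numbers for each Entrez gene in each of 10 mice. The submitters' processing notes name cutadapt, HISAT2 and the build GRCm38. Their versions, the counting tool, its annotation and strand setting, and how it treated reads mapping to several genes are not stated there. Reads of overlapping genes or near-identical copies may therefore be shared.

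Symbols and coordinates came from RefSeq of GRCm38 (25275 of 27179 genes matched). The length for RPKM was that of the merged exons of all transcripts listed for a gene in GENCODE, which can exceed the length of any 1 transcript. In R 4.3.3, filterByExpr left 15301 genes, which were scaled by TMM and tested with edgeR 4.0.16 (robust quasi-likelihood fit, group as the only term, Benjamini-Hochberg, threshold 0.05). SEs derive from the F statistic. Levels related to Asns were log2 CPM with a prior count of 2. Alternatives were DESeq2 1.42.0, limma 3.58.1 (voom with sample weights), other scalings, filters and thresholds, and leaving out mice. The pipeline was tested on simulated data. Members and lists were chosen with earlier results of these data known. Values per mouse are given for Atf4, Ddit3, Asns, members at an unadjusted p under 0.05 or without overlap, and members with an outlying mouse, with others chosen after their values were seen (Trib3, Chac1, Slc7a11, Cth). Of each further list, up to 3 genes with the lowest p were eligible to be named. The eIF2 kinase genes were named after their values were seen.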

Additional observations from a re-analysis of the deposited data

Results flagged for a closer look

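In 6 of 72 groups of 5 mice (36 genes in each genotype), 1 mouse lay farther from the nearest other mouse than Dixon's 95% critical value of 0.71 of the group's range in log2 CPM; chance gives this in about 1 group in 20. Flox mouse 5 was the lowest Flox mouse in Phgdh, at 12.5 CPM with the other 4 at 23.6 to 28.5 CPM, and in Slc7a5, at 4.73 CPM with the others at 10.6 to 13.1 CPM. EpithelialKO mouse 22 was the lowest of its group in the glycine transporter gene Slc6a9, at 21.9 CPM against 33.6 to 35.0 CPM, and the highest in Slc7a1, at 23.3 CPM against 20.9 to 21.5 CPM. EpithelialKO mouse 17 was the highest of its group in Atf4, at 166 CPM against 131 to 139 CPM. EpithelialKO mouse 18 was the highest in Slc3a2, at 207 CPM against 152 to 164 CPM. In 4 of these 6 cases the gene encodes an amino acid transporter.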

How the results depend on the processing

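The median log2 fold change of the 36 members stayed positive under all alternatives run, from 0.09 without Flox mice 4 and 6 to 0.19 with limma-voom. Members at an adjusted p under 0.05 numbered 2 with DESeq2's Wald test, 2 with limma-voom, 2 without the count filter and 0 to 2 when 1 mouse was left out. Genes called in the whole table numbered 279 with DESeq2's Wald test, 29 with limma-voom, 34 without the count filter, 38 at an adjusted p of 0.1, 0 without Flox mice 4 and 6 (edgeR, 1207 at an unadjusted p under 0.05) and 0 to 48 when 1 mouse was left out (edgeR, 1444 to 2408 at an unadjusted p under 0.05), the 48 without Flox mouse 5. Members higher at an unadjusted p under 0.05 numbered 7 without Flox mice 4 and 6, against 3.56% of all genes. They numbered 6 to 12 when 1 mouse was left out, against 4.21% to 7.57% of all genes. The 6 were found without EpithelialKO mouse 21, against 5.28%, and the 12 without Flox mouse 5, against 7.57%. In all mice 5 were at an unadjusted p under 0.01, for which the share of all genes was not counted. Lower members numbered 1 without Flox mice 4 and 6 (against 4.12% of all genes) and 0 to 1 when 1 mouse was left out (against 5.1% to 7.97%). The median of the secreted and surface targets was -0.05 with limma-voom, 0.04 without Flox mice 4 and 6 and -0.37 to -0.03 when 1 mouse was left out; that of the transcription factors, 0.14 in all mice, was 0.06 without Flox mice 4 and 6 and 0.09 to 0.30 when 1 mouse was left out, the highest without Flox mouse 5. Atf4 turned to -0.05 without Flox mice 4 and 6. The cause was not tested. No paired analysis was possible because the groups share no mouse numbers. Low counts limit Aldh1l2, Pycr1, Gdf15 and Stc2, whose SEs are 0.42 to 0.58.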
